A study of Mus musculus with 6 samples.

Results

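The genes described here build the first stages of the secretory pathway, from the entry of a new protein into the endoplasmic reticulum (ER) to its shuttling between ER and Golgi. They were taken from the deposited table by a pattern of gene symbols, and 66 of the 37761 genes in the table matched. They comprise the signal recognition particle (SRP) and its receptor, the Sec61 translocon, the translocon-associated protein (TRAP) complex and signal peptidase. The COPII and COPI vesicle coats, the Tmed genes, most of them p24 cargo receptors, and the lectins and KDEL receptors are also included. So are the Sec22 genes, of which Sec22b is a SNARE. RNA sequencing compared 3 libraries of whole pancreas dissected from mouse embryos at e15.5 with 3 libraries of islets freed by collagenase from mice aged 12 weeks. Both groups were wild type and received no treatment that the labels name. Strain, sex and the number of animals behind a library are not stated in the labels, so a p-value here reflects differences among libraries that could be technical. Whole organ against isolated islets, embryo against adult and the mix of cells differ together and cannot be told apart, and in such bulk samples neither can more cells of a secretory type and more RNA per cell.

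A protein bound for secretion is recognised by its signal sequence as it leaves the ribosome, and SRP carries the ribosome to the ER membrane. There the chain threads through the Sec61 channel, and signal peptidase removes the signal sequence. COPII coats then bud vesicles from ER exit sites, and COPI coats bring escaped ER proteins and cargo receptors back from the Golgi. Beta cells of the islet and acinar cells of the exocrine pancreas both secrete protein in bulk and lean heavily on this machinery, while the embryonic organ is a mixture of progenitors, mesenchyme, blood and early acinar and endocrine cells.

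The 6 libraries held between 35059950 and 47346870 reads assigned to genes. Beta cell markers took 0.0289 ± 0.00654% of the embryonic and 9.14 ± 0.593% of the islet reads (mean ± SD, n = 3), with 10 of 10 markers higher. Mesenchyme markers took 0.544 ± 0.0752% and 0.00495 ± 0.00189%, with 10 of 10 lower, and 3 of 6 erythroid markers, the embryonic globins, had no read in any islet library. Acinar markers, 13 in all, took 0.412 to 0.491% of reads among the embryonic libraries and 0.981, 1.92 and 0.731% in islet libraries 1, 2 and 3. Acinar tissue was therefore represented in both groups, and the second islet library held the most. Its part in the results below was not tested. Without the second islet library 50 members were called higher and 6 lower, beside 51 and 6 with it. The other islet libraries also held a larger acinar share than any embryonic one, so these counts do not bear on acinar content.

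Most of the machinery was more abundant in adult islets. Values are the authors' normalized counts, taken to be reads divided by 1 size factor per library. A log2 fold change is the islets over the embryonic pancreas on the log2(value + 1) scale. A gene was called when limma-trend gave an adjusted p under 0.05 over the 21653 genes that reached 10 normalized counts in 3 or more libraries. All 66 members passed that filter. Of them 51 (77.3%) were higher in the islets, 6 (9.09%) were lower and 9 were not called, so that 86.4% were called in either direction. Over all genes tested 72.8% were called, 36.2% higher and 36.6% lower. The share of members called was thus not far above the background, and the share called higher was about 2 times the background share.

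The median log2 fold change of the members was 0.90, against -0.03 over all genes tested. Most members are abundant, so genes of like kind are the closer background. Among 15471 protein-coding genes 77.9% were called, 41.3% higher and 36.6% lower, with a median of 0.07. Among the 6699 protein-coding genes that averaged at least 1000 normalized counts 79.6% were called, 48.4% higher and 31.1% lower, with a median of 0.21. The 56 members at that level were 47 higher, 2 lower and 7 not called, with a median of 0.94. A rise of at least 2-fold was called for 28 members, where the background over all genes was 22.6%, and a fall of at least 2-fold for 2, where it was 25.5%. The values of 59 members did not overlap between the groups, beside a background of 77.1% of genes. Under 4 other scalings, which put the median of all genes between -0.27 and 0.05, the members' median was 0.61 to 0.84, with 47 to 50 higher and 7 to 9 lower.

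**Figure D1:**
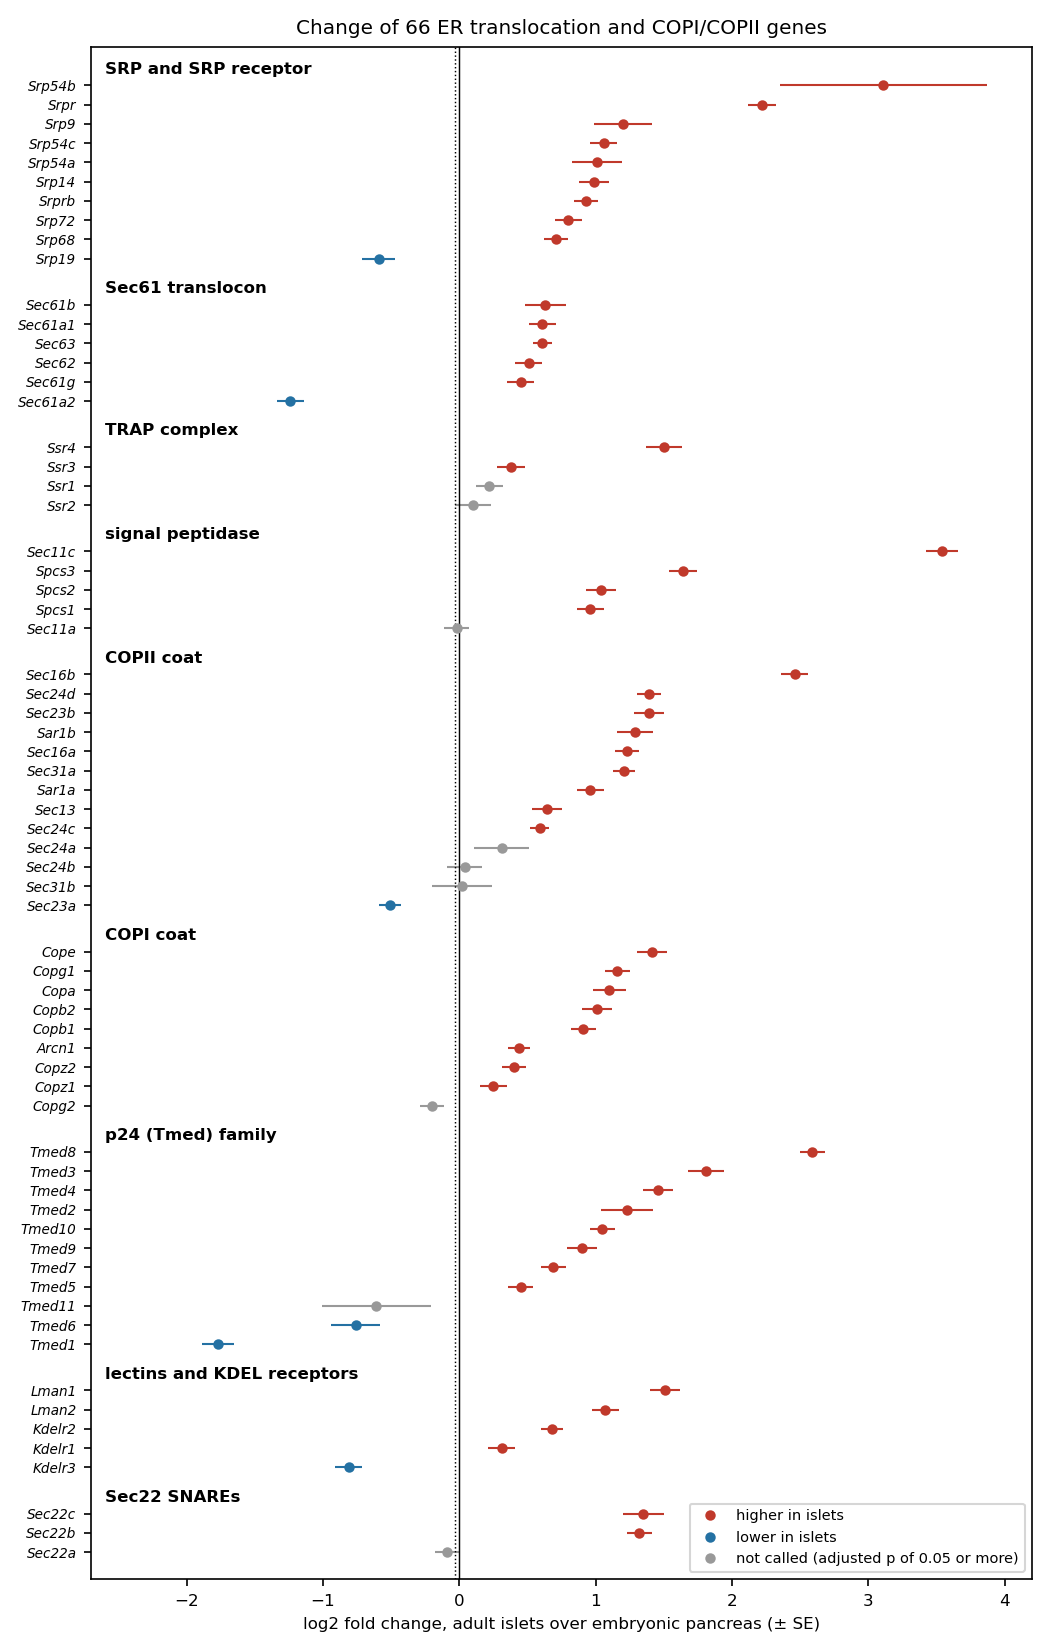
Log2 fold change of each member in adult islets over embryonic pancreas with its standard error, grouped by class and coloured by the limma-trend call; the dotted line is the median of all genes tested, -0.03. Points range from -1.77 for Tmed1 to 3.54 for Sec11c, and 51 of the 66 lie in the colour for higher.

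The promoters of the members were searched for the letters to which ER stress factors bind. Windows of 300 bases, from 250 before to 50 after the first transcribed base, came from RefSeq on GRCm38.p6, and 54 of the 66 members were matched by symbol. TGACGTGG, the core of the element bound by Xbp1 and Atf6 (searched on both strands; its reverse complement begins with CCACG, which also ends both ER stress elements below), was found in 6 members, 11.1% of those matched, beside 0.714% of all 27025 genes and 0.823% of 17491 protein-coding genes with a window. The sites are shown because 4 of the 6 belong to coat subunits of the inner or outer layer and 1 to a coat scaffold. Each line gives 30 bases, 5′ to 3′ along the gene, with the match in capitals, as TGACGTGG or its reverse complement CCACGTCA.
Copb1: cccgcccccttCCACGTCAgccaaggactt
Copb2: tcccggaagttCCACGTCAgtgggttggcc
Kdelr3: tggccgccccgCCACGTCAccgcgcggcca
Sec16b: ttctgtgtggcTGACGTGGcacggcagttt
Sec23a: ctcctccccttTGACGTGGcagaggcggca
Sec24d: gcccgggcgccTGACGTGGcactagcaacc

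On GRCm38.p6 these lie at chr7:114254690-114254719 on the minus strand for Copb1, chr9:98563713-98563742 on the plus strand for Copb2, chr15:79516367-79516396 on the plus strand for Kdelr3, chr1:157506741-157506770 on the plus strand for Sec16b, chr12:59011993-59012022 on the minus strand for Sec23a and chr3:123267459-123267488 on the plus strand for Sec24d. Counted from the first transcribed base of the RefSeq window, the match begins at -28 in Copb1, -7 in Copb2, -30 in Kdelr3, -44 in Sec16b, 6 in Sec23a and -26 in Sec24d. In the GENCODE M21 annotation 5 of the 6 matches fall inside an exon of at least 1 transcript, and that of Kdelr3 does not.

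The 6 genes did not move together. Sec16b, Sec24d, Copb2 and Copb1 rose, with log2 fold changes of 2.46, 1.39, 1.01 and 0.91, and Kdelr3 and Sec23a fell by 0.81 and 0.51. Of 72 partner genes of the same pathway with a window 4 held the same letters, namely Arf1, Gbf1, Scfd1 and Stx5a, all 4 of them called higher (0.71, 1.43, 1.39 and 0.63). The longer ER stress element, which is CCAAT, 9 bases and CCACG, was found in 0 of 54 members and in 0.137% of genes, and its second form, ATTGG, 1 base and CCACG, in 0 members and in 0.0444% of genes. Of the 72 partner genes 0 held the first form and 1, Krtcap2, the second. CCAAT alone, which is also part of the longer element, was present in 44.4% of members and 42.3% of protein-coding genes, and GGGCGG, the letters of a GC box, in 64.8 and 49.2%. These matches describe the letters in the window and say nothing of binding.

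The signal recognition particle and its receptor rose almost throughout, with 9 of 10 genes higher, 1 lower and a class median of 1.0. Srpr encodes the receptor subunit that docks the particle and its ribosome at the ER membrane. It stood at 3542, 3814 and 3026 normalized counts among the embryonic libraries and at 16103, 15822 and 16286 in the islet libraries. The islet libraries were all more than 4 times as high as any embryonic one, and the log2 fold change was 2.22 (SE 0.10, adjusted p = 1.4e-07 by limma-trend). Srpr (ENSMUSG00000032042.11) lies on chromosome 9, 35200175 to 35247973, plus strand, on GRCm38. Srprb, which anchors Srpr in the membrane, went from 971 ± 96.5 to 1842 (log2 fold change 0.93). Srpr and Srprb share 17.7 and 19.9% of the 50-base words in their exons with other genes.

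Within the particle, Srp9 and Srp14, the pair that pauses translation, had log2 fold changes of 1.2 and 0.99, and Srp68 and Srp72, which sit together on the RNA, had 0.71 and 0.80. Srp19, which helps Srp54 bind the particle's RNA, went the other way. Its values were 1654, 2021 and 1487 among the embryonic libraries and 1210, 1092 and 1103 in the islets. The groups did not overlap, and Srp19 fell by 0.59 on the log2 scale (SE 0.12, adjusted p = 0.0020 by limma-trend).

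The signal-sequence binding subunit is encoded by 3 near-identical mouse genes, Srp54a, Srp54b and Srp54c. Of the 50-base words in their exons, 70.5, 89.3 and 93.9% occur in another gene, so reads could be split or dropped between them and each count is uncertain. Srp54b gave 377, 79.3 and 41.7 among the embryonic libraries and 420, 1438 and 1374 in the islets, with a log2 fold change of 3.11 (SE 0.76, adjusted p = 0.0053 by limma-trend). The first library of each group stood apart from its replicates, and the log2 fold change was 4.01 without embryonic library 1, 2.43 without embryonic library 3 and 3.69 without islet library 1. Summed over the 3 genes, the value was 1177, 974 and 854 among the embryonic libraries and 2076, 3124 and 3225 in the islets. The sums did not overlap, with a ratio of means of 2.81 (two-sided exact permutation p = 0.1, the smallest that 3 against 3 libraries allow).

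The main genes of the Sec61 channel rose by narrow margins, with log2 fold changes of 0.61 for Sec61a1, the pore, 0.63 for Sec61b and 0.45 for Sec61g, its small partners, and 0.51 and 0.61 for Sec62 and Sec63, which help chains enter after synthesis. The exception was Sec61a2, a second gene for the pore subunit, which was 1201, 1041 and 1236 among the embryonic libraries and 514, 488 and 461 in the islets. With 19.9% of its exons overlapped by another gene, it fell by 1.24 on the log2 scale (SE 0.10, adjusted p = 6.6e-06 by limma-trend). In this class 5 of 6 genes rose, 1 fell, and the median was 0.56. Sec61b and Sec61g share 17.4 and 14.8% of their 50-base words with other genes.

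The TRAP complex, which sits beside the channel and helps some signal sequences to engage it, gave 2 genes higher and 2 not called, with a median of 0.30. Ssr4 stood out, at 2356, 3123 and 2256 among the embryonic libraries and 7350, 6815 and 7536 in the islets (log2 fold change 1.50, SE 0.13, adjusted p = 6.8e-06 by limma-trend). Ssr3 had a log2 fold change of 0.38. Ssr1 and Ssr2 were not called, with log2 fold changes of 0.22 and 0.10, and both were called higher without embryonic library 2 (0.30 and 0.24). Both turned negative, and Ssr3 lost its call, with quantile normalization and with a total that left out the most abundant genes.

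Signal peptidase held the largest change of any member. The enzyme has alternative catalytic subunits, Sec11a and Sec11c, together with the accessory subunits Spcs1, Spcs2 and Spcs3. Sec11c was at 502, 682 and 506 normalized counts among the embryonic libraries and at 6624, 6650 and 6237 in the islets. The lowest islet library was over 9 times the highest embryonic one, and the log2 fold change was 3.54 (SE 0.12, adjusted p = 4.0e-08 by limma-trend). Sec11a was 2864, 3402 and 2846 among the embryonic libraries and 2933, 3024 and 2996 in the islets. Its groups overlapped, and its log2 fold change of -0.02 was not called (SE 0.09, adjusted p = 0.85 by limma-trend), though under 3 of the 4 other scalings it was called lower. Spcs3 rose from 6087 ± 602 to 18942 ± 1070 (log2 fold change 1.64), Spcs2 from 5303 ± 736 to 10825 (1.04) and Spcs1 from 2490 ± 292 to 4820 (0.96).

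**Figure D2:**
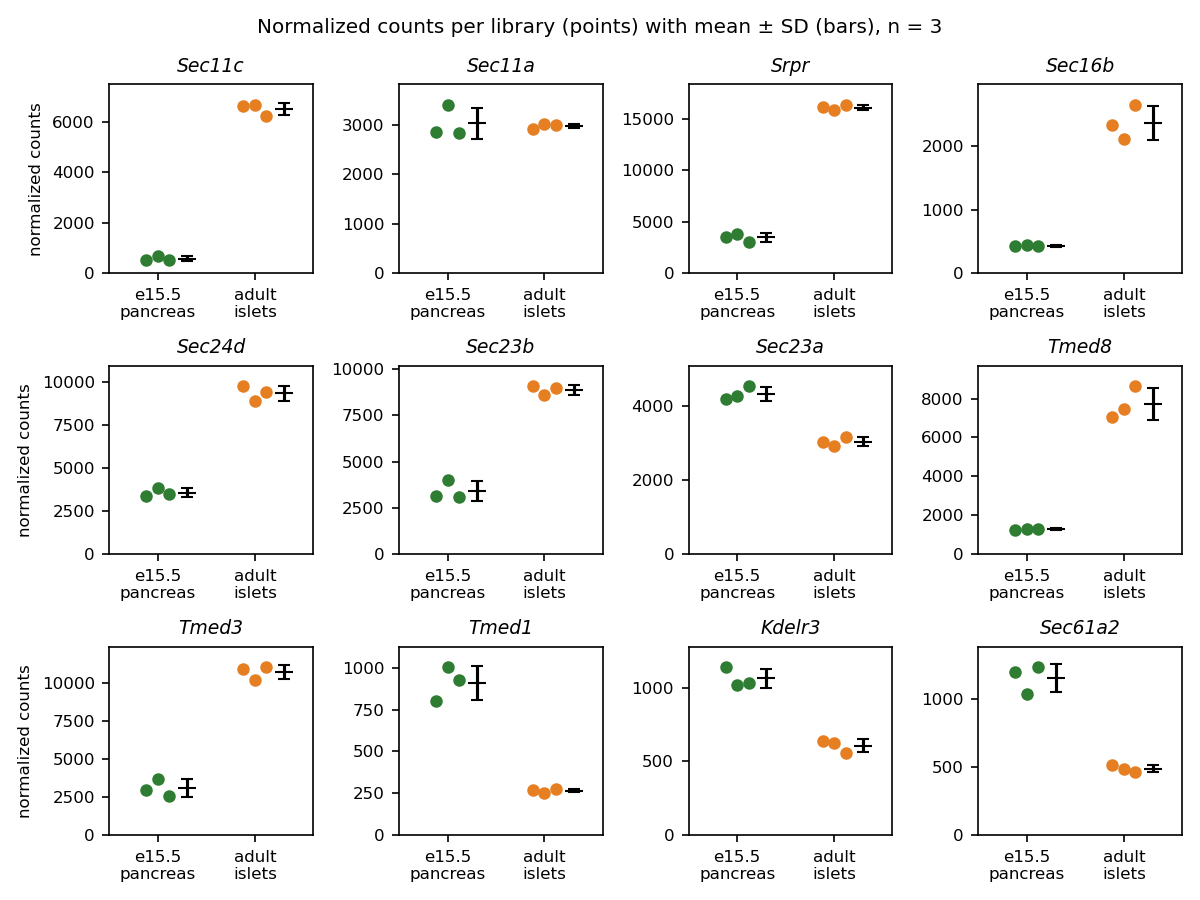
Normalized counts of 12 members in each library (points, green for embryonic pancreas and orange for adult islets) with the mean ± SD of 3 libraries beside them; every axis starts at 0. Sec11c lies between 502 and 682 in the embryo and between 6237 and 6650 in the islets while Sec11a overlaps, and Sec23a, Tmed1, Kdelr3 and Sec61a2 are lower in all 3 islet libraries.

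The COPII coat rose in 9 of 13 genes, fell in 1 and was not called in 3, with a median of 0.96. Sec16 marks the ER exit sites where the coat assembles. Sec16b, the gene with the shorter coding transcript, was 425, 440 and 421 among the embryonic libraries and 2344, 2114 and 2646 in the islets. The groups did not overlap (log2 fold change 2.46, SE 0.10, adjusted p = 9.7e-08 by limma-trend). Sec16b (ENSMUSG00000026589.14) lies on chromosome 1, 157506728 to 157568425, plus strand. Sec16a, with the longer coding transcript, rose by less, from 6456 ± 459 to 15114 (log2 fold change 1.23).

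Sec24 selects cargo and Sec23 binds it into the inner coat. Sec24d was 3354, 3850 and 3472 among the embryonic libraries and 9733, 8863 and 9398 in the islets (log2 fold change 1.39, SE 0.09, adjusted p = 9.9e-07 by limma-trend). Sec24c rose with a log2 fold change of 0.59, while Sec24a and Sec24b were not called (0.31 and 0.04) and their groups overlapped. In embryonic library 2 Sec24a and Sec24b were at 824 and 1248, the lowest of the 6 libraries.

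The Sec23 genes moved in opposite directions. Sec23b was 3144, 4022 and 3069 among the embryonic libraries and 9067, 8590 and 8996 in the islets, for a log2 fold change of 1.39 (SE 0.11, adjusted p = 5.2e-06 by limma-trend). Sec23a was 4176, 4255 and 4526 among the embryonic libraries and 3038, 2913 and 3150 in the islets, a value that fell by 0.51 on the log2 scale (SE 0.08, adjusted p = 0.00031 by limma-trend). Neither gene overlapped between groups. The outer coat genes Sec31a and Sec13 rose (1.21 and 0.64), as did the GTPases Sar1b and Sar1a, which start coat assembly (1.29 and 0.96). Sec31b, the other outer coat gene, was not called, at 44.2, 44.9 and 45.8 in the embryo and 43.9, 43.6 and 49.4 in the islets.

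The COPI coat rose in 8 of 9 genes with a median of 0.91. Copa, the alpha subunit of the outer layer, was at 14635, 16200 and 12655 among the embryonic libraries and 30683, 29487 and 32494 in the islets (log2 fold change 1.10, SE 0.12, adjusted p = 3.0e-05 by limma-trend). Cope, the epsilon subunit, had the steepest rise of the class, at 2353, 2949 and 2330 against 7241, 6417 and 6573 (log2 fold change 1.41, SE 0.11, adjusted p = 4.0e-06 by limma-trend). Copg1, Copb2 and Copb1 had log2 fold changes of 1.16, 1.01 and 0.91. Arcn1, the delta subunit, and the zeta subunits Copz2 and Copz1 had 0.44, 0.40 and 0.25, each of which lost its call under at least 1 other scaling.

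The Copz1 call rested on a narrow margin (adjusted p = 0.046 by limma-trend) and was lost when any library other than embryonic library 2 was left out. Copg2, the second gamma subunit gene, was 3526, 4064 and 3408 in the embryo and 3084, 3238 and 3220 in the islets. Its groups did not overlap, its log2 fold change of -0.20 was not called (adjusted p = 0.070 by limma-trend), and it was called lower without embryonic library 3 (-0.25) and under each of the 4 other scalings. Another gene overlaps 17.8% of the exonic length of Copg2, and the labels do not say that strand was kept, so the reads of both cannot be told apart there.

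The Tmed class, most of it the p24 family, held genes that moved in both directions. It had 8 genes that rose, 2 that fell and 1 not called out of 11, and its median was 0.90. The p24 proteins cycle between ER and Golgi, and Tmed2 and Tmed10 are the core partners of the complex. Tmed2 rose from 5333 ± 1555 to 12182 (log2 fold change 1.23) and Tmed10 from 3519 ± 378 to 7262 (1.05). Tmed2 and Tmed10 share 22.0 and 8.0% of their 50-base words with other genes.

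Tmed8 was placed in this class by its symbol, and no role as a p24 cargo receptor is implied. It was 1216, 1299 and 1312 among the embryonic libraries and 7054, 7481 and 8622 in the islets (log2 fold change 2.59, SE 0.09, adjusted p = 4.8e-08 by limma-trend). Tmed3 was 2986, 3706 and 2573 against 10914, 10189 and 11003 (log2 fold change 1.81, SE 0.13, adjusted p = 2.3e-06 by limma-trend). Neither gene overlapped between groups. Tmed8 (ENSMUSG00000034111.6) lies on chromosome 12, 87166237 to 87200454, and Tmed3 (ENSMUSG00000032353.9) on chromosome 9, 89699206 to 89705068, both on the minus strand.

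Tmed4, Tmed9, Tmed7 and Tmed5 had log2 fold changes of 1.46, 0.90, 0.69 and 0.45. Tmed1, of whose exons another gene overlaps 13.6%, moved against them, at 799, 1003 and 928 among the embryonic libraries and 267, 254 and 276 in the islets. Every islet library was below every embryonic one by more than 2-fold, and Tmed1 fell by 1.77 on the log2 scale (SE 0.12, adjusted p = 1.6e-06 by limma-trend), the largest fall among the members. Tmed6 was 1061, 1439 and 1002 in the embryo and 693, 820 and 549 in the islets and fell by 0.76 (SE 0.18, adjusted p = 0.0042 by limma-trend). The second islet library, which held the most acinar reads, was also the highest of the islet libraries for Tmed6. Tmed6 was still called lower without it, but leaving out the highest islet value can only deepen a fall. The part of acinar cells in the Tmed6 values was not tested. Tmed11 was hardly expressed, at 23.1, 37.6 and 31.9 in the embryo and 18.7, 32.7 and 11.8 in the islets, and was not called.

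Of the cargo and retrieval receptors 4 rose and 1 fell, with a median of 0.68. Lman1, the mannose-binding lectin ERGIC-53 that ferries glycoproteins out of the ER, was 8696, 10134 and 8090 among the embryonic libraries and 25730, 23770 and 26977 in the islets (log2 fold change 1.51, SE 0.11, adjusted p = 2.8e-06 by limma-trend). Lman2, a related lectin, rose from 6773 ± 745 to 14207 (log2 fold change 1.07). KDEL receptors return ER-resident chaperones from the Golgi, and their 3 genes differed in direction. Kdelr2 and Kdelr1 rose with log2 fold changes of 0.68 and 0.31, though the call of Kdelr1 (adjusted p = 0.017 by limma-trend) was lost without embryonic library 1, embryonic library 3 or islet library 1 and under 2 of the 4 other scalings. Kdelr3 was 1138, 1022 and 1030 among the embryonic libraries and 641, 623 and 557 in the islets, without overlap. It fell by 0.81 (SE 0.10, adjusted p = 8.2e-05 by limma-trend).

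Of the 3 Sec22 genes, which include the SNARE Sec22b that fuses vesicles between ER and Golgi, 2 rose and 1 was not called. Sec22b was 2978, 3166 and 2623 in the embryo and 7297, 6888 and 7605 in the islets (log2 fold change 1.32). Sec22c went from 287 ± 57.7 to 724 (log2 fold change 1.35). Sec22a was 1305, 1419 and 1222 against 1240, 1223 and 1239, with overlapping groups and a log2 fold change of -0.09.

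Because some paralogs of a subunit can replace each other, ratios of paralogs within a library were set beside the changes of the single genes. Such a ratio does not depend on how libraries are scaled. For 16 of 17 pairs the ratios did not overlap between the groups, 9 higher and 7 lower in the islets. No background for the ratios of other gene pairs was made, and 77.1% of single genes already did not overlap. Each of these has a two-sided exact permutation p = 0.1 (0.106 adjusted over the 17 pairs), the smallest possible with 3 against 3 libraries, so none could pass a threshold of 0.05. The pairs hold the same genes whose changes are given above, and several share a gene.

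Sec11c against Sec11a shifted most. The log2 ratio was -2.51, -2.32 and -2.49 among the embryonic libraries and 1.18, 1.14 and 1.06 in the islets, a difference of 3.56. Per kilobase of merged exons Sec11c stood at 0.125 ± 0.00942 times Sec11a in the embryo and at 1.48 ± 0.0608 times in the islets. The order of the catalytic subunits was thus turned round, and it was also turned round per length of the coding transcripts (0.225 and 2.65). Sec23b against Sec23a followed, at -0.41, -0.08 and -0.56 in the embryo and 1.58, 1.56 and 1.51 in the islets. Per kilobase of exons its ratio went from 0.608 ± 0.106 to 2.25 ± 0.0510, and per length of the coding transcripts from 0.946 to 3.50.

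Tmed3 against Tmed7, Sec16b against Sec16a and Sec24d against Sec24c shifted up by 1.12, 1.23 and 0.80 on the log2 scale. Downward shifts were found for Sec61a2 against Sec61a1 (-1.85), Kdelr3 against Kdelr2 (-1.49), Sec22a against Sec22b (-1.41) and Copg2 against Copg1 (-1.36). Copg2 per kilobase of exons went from 1.22 ± 0.0139 to 0.475 ± 0.0275 times Copg1, but per length of the coding transcripts it was below Copg1 in both groups (0.362 and 0.141), so which gamma gene led in the embryo depends on the length used. Sec22c against Sec22b was the pair that overlapped, with a mean log2 ratio of -3.36 ± 0.41 in the embryo and -3.32 ± 0.01 in the islets.

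**Figure D3:**
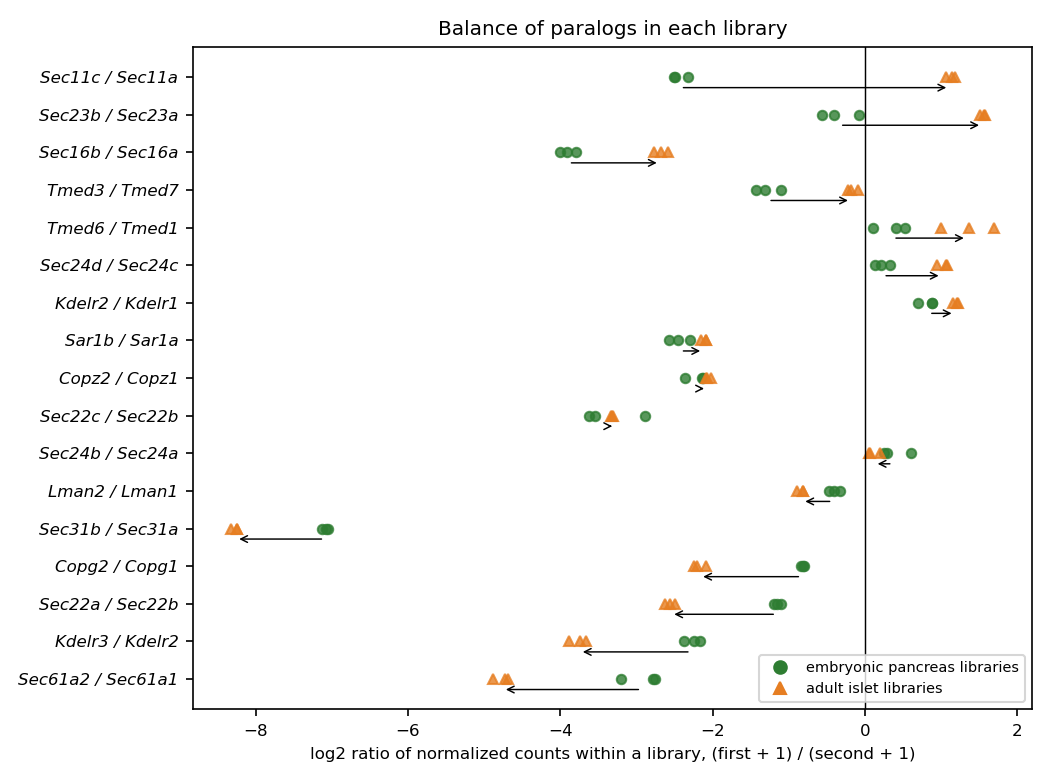
Log2 ratio of normalized counts of the first to the second named paralog in each library (green circles embryonic pancreas, orange triangles adult islets); arrows run from the embryonic to the islet mean. Sec11c / Sec11a moves from about -2.44 to 1.12 and crosses 0, while Sec22c / Sec22b is the pair whose groups overlap; the ratios are not corrected for gene length.

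Levels of different members can be compared only per length, here normalized counts per kilobase of merged exons. In the embryonic pancreas Ssr2 led at 4751 ± 800, followed by Ssr3 at 3587 ± 346, and the ranges of both were separate from that of the next gene. Kdelr2 (2799 ± 111), Sec61b (2510 ± 577) and Tmed2 (2111 ± 616) came next, each overlapping its neighbour. In the islets the order was Spcs3 (5465 ± 309), Ssr2 (5071 ± 382), Tmed2 (4821 ± 35.9), Srpr (4777 ± 69.5) and Ssr3 (4659 ± 153), where each overlapped the next. Srpr had stood at 1029 per kilobase in the embryo. Sec31b was last in both groups, at 11.4 and 11.6 per kilobase. Per length of the coding transcripts, the first 5 were Ssr2, Ssr1, Ssr3, Spcs2 and Sec61b in the embryo and Spcs2, Ssr2, Ssr1, Ssr4 and Ssr3 in the islets, so TRAP genes were among the leaders by either length while the place of Srpr and Spcs3 depended on it.

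Added together, the 66 genes made up 0.766, 0.761 and 0.743% of embryonic and 1.07, 1.01 and 1.04% of islet reads that were assigned to genes, a ratio of 1.38 without overlap (two-sided exact permutation p = 0.1, the smallest possible). This share needs no size factor, but it is taken against a total that hormone transcripts swell in the islets. Against a total that leaves out each group's 20 most abundant genes it went from 1.02 ± 0.0366 to 1.63 ± 0.0636%, a ratio of 1.6.

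The classes differed in this share. Signal peptidase went from 0.0503 ± 0.00172 to 0.0933 ± 0.00217% (ratio 1.85) and SRP and its receptor from 0.0518 ± 0.00358 to 0.0883 ± 0.0012% (1.70). The Tmed class went from 0.0897 ± 0.00507 to 0.143 ± 0.00208% (1.59). The lectins and KDEL receptors, the Sec22 genes, the COPII coat and the COPI coat had ratios of 1.54, 1.49, 1.44 and 1.35. The Sec61 translocon stood at 1.05, and none of these 8 classes overlapped between groups. The TRAP complex was the class whose libraries overlapped, at 0.125, 0.125 and 0.119% in the embryo and 0.123, 0.112 and 0.114% in the islets (two-sided exact permutation p = 0.2, before adjustment for the 9 classes).

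**Figure D4:**
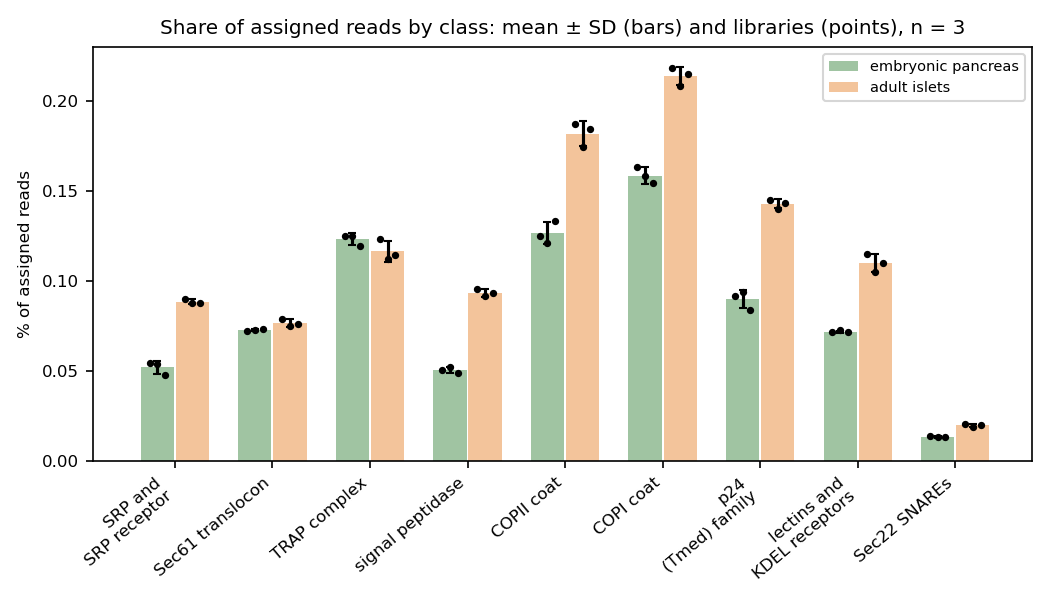
Share of assigned reads taken by each class of members, in percent, as mean ± SD (bars, from 0) with the 3 libraries of each group as points. Signal peptidase rises from 0.0503 to 0.0933%, COPI takes the largest share in both groups, and the TRAP complex overlaps at 0.123 and 0.116%.

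Partner genes of the same stages, 87 in the table from 91 listed symbols, were mostly higher as well. Of them 62 were higher, 8 lower and 17 not called, with a median of 0.74. The background over all genes was 36.2% higher and 36.6% lower. Over protein-coding genes that averaged at least 1000 normalized counts it was 48.4% higher and 31.1% lower, with a median of 0.21. Oligosaccharyltransferase, which glycosylates chains as they enter the ER, and the TRAM proteins beside the channel gave 11 of 15 higher and 3 lower, with a median of 0.81. Tram1 was 10105, 12781 and 9929 in the embryo and 31418, 29930 and 30929 in the islets (log2 fold change 1.50), and Dad1, an oligosaccharyltransferase subunit, had 1.35. Tram2 and Tram1l1, relatives of Tram1, fell by 1.19 and 1.02.

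Partners at ER exit gave 12 of 17 higher and 1 lower, with a median of 0.60. Mia3 (TANGO1), which lets bulky cargo such as collagen into COPII carriers, was 3557, 3758 and 3539 in the embryo and 15542, 15289 and 18105 in the islets (log2 fold change 2.17, SE 0.09, adjusted p = 1.1e-07 by limma-trend). Its partner Mia2 had a log2 fold change of 1.52. Cnih4, of the cornichon family of cargo receptors, fell by 0.99.

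Among Arf and Rab regulators of COPI, 11 of 13 were higher, with a median of 0.71, led by Arfgap3, which triggers GTP hydrolysis on Arf1 (2.14), and Gbf1, which loads Arf1 with GTP (1.43). SNAREs and tethers between ER and Golgi gave 14 of 17 higher, with a median of 0.96, led by Nbas of the tether at the ER (1.88) and Golga2, the Golgi matrix protein GM130 (1.66). Neither of these lists had a gene called lower.

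Among the partner lists, the ER membrane complex (EMC), which inserts membrane proteins, and the proteins that insert tail-anchored proteins had the lowest median. They gave 8 of 16 higher, 2 lower and 6 not called, with a median of 0.25, near the 0.21 of abundant protein-coding genes. Emc7 and Emc9 rose (1.41 and 1.38), and Wrb, the receptor for tail-anchored proteins, and Emc8 fell by 0.63 and 0.48. This list held 0.0702 ± 0.00232% of reads in the embryo and 0.0702 ± 0.000578% in the islets (ratio 0.999), and the difference between it and the members was not tested.

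Transcription factors known to drive secretory pathway genes gave 6 of 9 higher and 2 lower, with a median of 1.01. Atf6, a membrane-bound sensor of ER stress, was 2733, 3175 and 2397 in the embryo and 12256, 12812 and 14714 in the islets (log2 fold change 2.26, SE 0.12, adjusted p = 3.8e-07 by limma-trend). Creb3, of the same type, had 2.16, with 20.8% of its exons overlapped by another gene, and Xbp1 had 1.01. Creb3l4, a relative of Creb3, fell by 1.78, from 181 ± 38.7 to 51.6. Bhlha15 (Mist1), a factor of acinar cells, was 1453, 1686 and 1330 against 1299, 1106 and 1254 and fell by 0.28 (adjusted p = 0.046 by limma-trend), a call lost when any library but embryonic library 3 was left out.

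**Figure D5:**
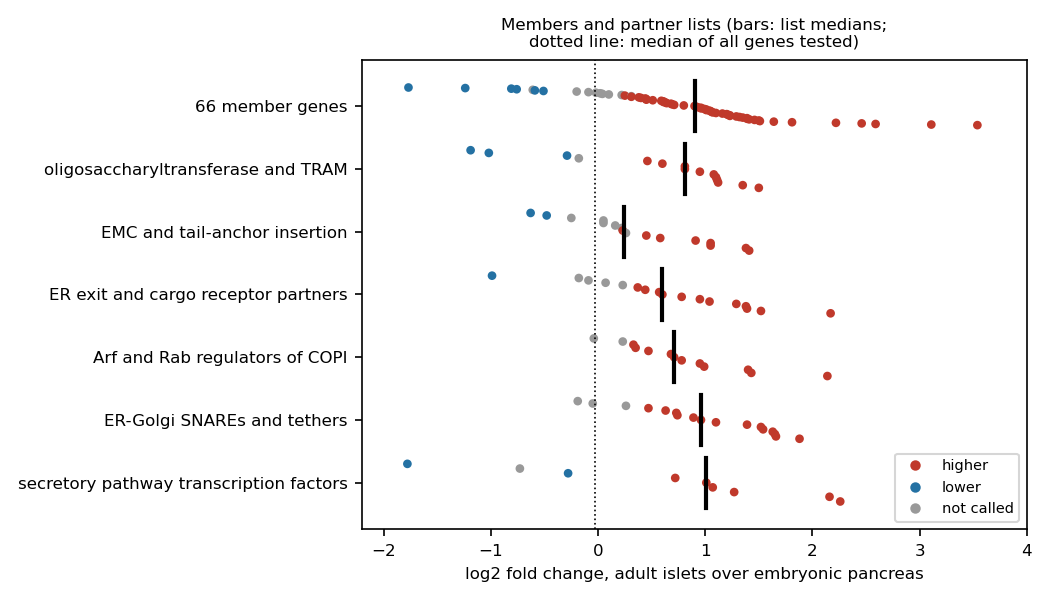
Log2 fold change of each member and of each gene in 6 lists of partners, coloured by the limma-trend call, with the list median as a bar and the median of all genes tested as a dotted line. The members have a median of 0.90, the SNAREs and tethers 0.96, and the EMC and tail-anchor list 0.25.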

How the data were processed

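The series measured gene expression by RNA sequencing in 3 libraries of whole embryonic pancreas and 3 of adult islets. Per the labels' protocols, total RNA went into TruSeq RNA libraries. The submitters' processing notes name TopHat 1.3.2 and Cufflinks 1.2.1 beside CASAVA 1.8.2, an unversioned DESeq2 and the build mm10; no read counter and no annotation is given in the sources used here. Per the file headers, the deposited table holds a normalized signal per gene, the read count over 1 size factor for each library from the authors' run of DESeq2. The authors also deposited their mean, log2 fold change, linear fold ratio, score of the test and raw or adjusted p-value, none of which is used here. Summary entries for reads not assigned to a gene (40.7 to 54.6% of a library) were left out.

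The 66 members match the symbols of a fixed pattern; members, classes, paralog pairs, partner and marker lists were chosen with earlier results of these data known. Genes that reached 10 normalized counts in 3 or more libraries were tested with limma-trend (limma 3.58.1, R 4.3.3) on log2(value + 1), two-sided, with no covariate and 4 residual degrees of freedom, and p-values were adjusted over all 21653 genes by the method of Benjamini and Hochberg. The test was checked on simulated data with 200 changed genes, up or down, and known library totals. Far more genes were called in the real data, so this check does not bear on the scaling of the libraries. Shares of reads and paralog ratios were compared with two-sided exact permutation tests (SciPy 1.17.1). All values were whole multiples of 1 step per library within 0.01 reads, so reads were recovered and edgeR 4.0.16 and DESeq2 1.42.0 run on them as alternatives chosen after the data were seen; for islet library 2 the step, 0.992, lies too near 1 to show this by itself. These count models called 16072 and 15413 of the same genes. Reads per library were 35059950, 36287602 and 39713899 in the embryonic pancreas and 41983532, 47346870 and 45411891 in the islets.

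Exon lengths and positions are from GENCODE M21 on GRCm38, to which 36971 names matched directly and 114 through RefSeq synonyms; the coding transcript length was added as a second measure after the data were seen. Exonic words of 50 bases were compared between genes to find shared sequence: 34 members shared none and 10 shared more than 10%. A further measure, the exonic length that overlaps another gene, was above 10% for 9 members (Srp9, Srprb, Sec61a2, Sec62, Ssr2, Spcs1, Copg2, Tmed1 and Tmed11), whose reads are uncertain. Named genes were, in each class, the 2 called with the steepest rise and fall, the genes of paralog pairs, the 5 highest per kilobase in each group, members not called, and 2 in each direction from each partner list; 4 listed partner symbols (Camlg, Ctage5, Ubl4 and Rab1) did not match the table. A planned search of protein endings was not run. Alternatives were other scalings, pseudocounts of 0.1 and 5, no filter or a minimum of 50, a block for the replicate number, limma-voom, each library left out in turn and stricter thresholds.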

Additional observations from a re-analysis of the deposited data

How the results depend on the processing

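Of the 66 members, all 66 kept their direction and call with pseudocounts of 0.1 and 5 and with limma-voom, and all 64 that were tested did so with a minimum of 50 normalized counts. Under other scalings the median of all genes moved from -0.03 to -0.27 when the 20 most abundant genes of each group were left out of the total and to -0.16 with upper quartile scaling. Members called higher then numbered 47 and 50, and 47 with quantile normalization, with 9 lower in each. The members' median, 0.90, became 0.61 with quantile normalization, 0.67 without the 20 most abundant genes and 0.78 with upper quartile scaling, and partner genes called lower, 8, became 13, 16 and 13. Sec11a was called lower under these 3 scalings (-0.28, -0.26 and -0.15), and so was Sec22a. Signs reversed for Copz1 (-0.04, quantile), Ssr1 (-0.06, quantile, and -0.02 without the 20 genes), Ssr2 (-0.19, quantile, -0.13 without the 20 genes and -0.02, upper quartile), Sec24b (-0.14, quantile, -0.20 without the 20 genes, -0.09, upper quartile, -0.02, TMM, -0.05, edgeR and -0.01, DESeq2) and Sec31b (-0.21 without the 20 genes, -0.10, upper quartile, -0.04, TMM, -0.04, edgeR and -0.0, DESeq2). Requiring at least a 2-fold change left 28 members higher, 2 lower and 36 not called, and 32 partners higher and 3 lower. The gain in read share of 0.286 percentage points became 0.609 without the 20 genes. Leaving out each library gave 49 to 53 members higher and 6 to 7 lower; Sec11a (-0.06 to 0.06), Sec24b (-0.12 to 0.13), Sec31b (-0.04 to 0.05) and the ratio of Sec22c to Sec22b (-0.11 to 0.27) changed sign, none of them called, and the cause was not tested. edgeR and DESeq2 each called 50 higher and 7 lower. Whether replicate numbers pair the libraries could not be settled with so few libraries. Same-numbered deviations from the group means correlated at 0.04, 0.08 and 0.01, and differently numbered ones at -0.08 to 0.05. Most libraries, though not all, correlated best with their own number. With a replicate block 50 members were higher and 6 lower. With 3 libraries per group a permutation test cannot go below 0.1. Sec31b and Tmed11 rested on 145 and 99 embryonic reads.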
